A study of Mus musculus with 4 samples.

Results

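The genes described here are 48 mouse genes whose products copy the genome or make its precursors. They were listed by name from their known roles, with earlier results of these data known. All 48 were found among the 53845 rows of the deposited count table and among the 17504 genes with enough reads to be tested. They were read in 7 groups by role: origin recognition and licensing (8 genes), the replicative helicase (12), the sliding clamp and its loader (6), DNA polymerases and primase (9), single-strand binding and strand joining (5), deoxynucleotide synthesis (6) and maintenance methylation (2).

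Before a cell can copy its DNA, the origin recognition complex, CDC6 and CDT1 load the ring-shaped MCM helicase onto origins, and CDC45 and the GINS complex then switch it on. Primase lays down short RNA primers, replication factor C opens the PCNA ring and closes it around the primed strand, and the polymerases copy each strand while thymidylate synthase, thymidine kinase and ribonucleotide reductase keep up the supply of building blocks. Most of these genes are switched on together by E2F factors as cells enter S phase. In the small intestine such cells sit in the crypts, where stem cells and transit-amplifying cells divide, and they leave the cycle on their way to the villi.

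The study sequenced total RNA of small intestinal crypts from C57BL/6 mice, with 2 WT libraries and 2 Vil-CREPTKO libraries. The Vil-CREPTKO mice carried CREPT fl/fl alleles, in which exon 3 is flanked by loxP sites, and a Villin-cre transgene, whose promoter is active throughout the intestinal epithelium and not in the stroma or blood cells between it. The labels give no treatment, sex or age for any mouse, and the study's reporting summary gives both sexes at 6 to 8 weeks for its mice in general. Crypts were released with EDTA and passed through a strainer, with no sort of cell types.

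The 4 libraries held 47241049 to 49369315 counts each, and the members took between 118 and 9787 counts in a library. Levels are given as CPM, counts scaled to a common library total after TMM normalization, and fold changes as Vil-CREPTKO over WT on the log2 scale. Rprd1b, the gene that encodes CREPT, stood at 60.5 and 61.6 CPM in WT and at 26.3 and 29.0 CPM in Vil-CREPTKO, for a log2 fold change of -1.14 (standard error 0.12, edgeR adjusted p = 0.0041). The targeted gene was therefore lower in both libraries labelled Vil-CREPTKO, with reads remaining. WT replicate 2 had 42463 Xist counts and no Y-linked count (0 over 4 genes), against 13 to 26 Xist and 7126 to 7553 Y-linked counts elsewhere, so 1 WT mouse was female and the rest male. Pola1 is the member on the X chromosome. Vil-CREPTKO replicate 1 stood apart in its make-up. The 14 villus enterocyte markers summed to 35580 CPM there and to 20435 to 27373 CPM in the other 3 libraries, 10 crypt base markers to 1686 against 2116 to 2525 CPM, and mitochondrial reads took 10.2% against 6.75 to 7.62%. None of the genes on either marker list passed adjusted p = 0.05 between the groups. The 11 epithelial markers summed to 9825 to 11230 CPM, the 15 immune markers to 861 and 685 CPM in WT and 653 and 546 CPM in Vil-CREPTKO, lower in both Vil-CREPTKO libraries with 9 of 15 markers below 0 on the log2 scale and 0 called, and their part in the results below was not tested. The 11 stromal markers were low, with 7 of them tested and summing to 13.0 to 29.8 CPM, the highest in Vil-CREPTKO replicate 1, and with Lum, Pdgfra and Cdh5 at 0 counts in Vil-CREPTKO replicate 2. Of the smooth muscle markers 2 of 7 were tested, at 148 to 212 CPM together, and the defining Acta2 had 0 to 2 counts in each library. The 5 blood genes, mostly globins, summed to 12.4 and 28.4 CPM in WT and to 66.4 and 16.8 CPM in Vil-CREPTKO.

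Tyms and Rfc4 fell in the Vil-CREPTKO crypts and no member rose. That is 4.17% of the 48 members called lower at an adjusted p under 0.05, against 2.29% of all genes tested called lower (400 of 17504) and 0.423% called higher, 2.71% in all. The number of members called moved with the library left out. Tyms was then at -0.85 to -0.71 and Rfc4 at -1.09 to -0.71 on the log2 scale. The study's own additional limit, a change of more than 1 on the log2 scale, was passed downward by 1.34% and upward by 0.297% of all genes and by 0 members. At an unadjusted p under 0.05, 5 members were lower, or 10.4%, beside 9.76% of all genes, and 0 were higher, beside 4.49%. Both Vil-CREPTKO libraries lay below both WT libraries for 11 members, or 22.9%, against 24.2% of all genes, and above them for 4 members, or 8.33%, against 21.0%. In the fit of all 4 libraries, the share of members called or separated downward was thus near that of all genes.

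For most of the other members the data set limits on how far they moved. The median log2 fold change of the 48 members was -0.061, beside -0.0060 over all genes tested, with 30 members below 0, or 62.5% against 50.9% of all genes, and 18 above. The 95% interval of the fold change contained 0 for 43 members, or 89.6%, against 85.7% of all genes. It left out a 2-fold decrease for 46 members and both a 2-fold decrease and a 2-fold increase for 45. A 1.5-fold change in either direction lay outside the interval of 36 members.

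**Figure D1:**
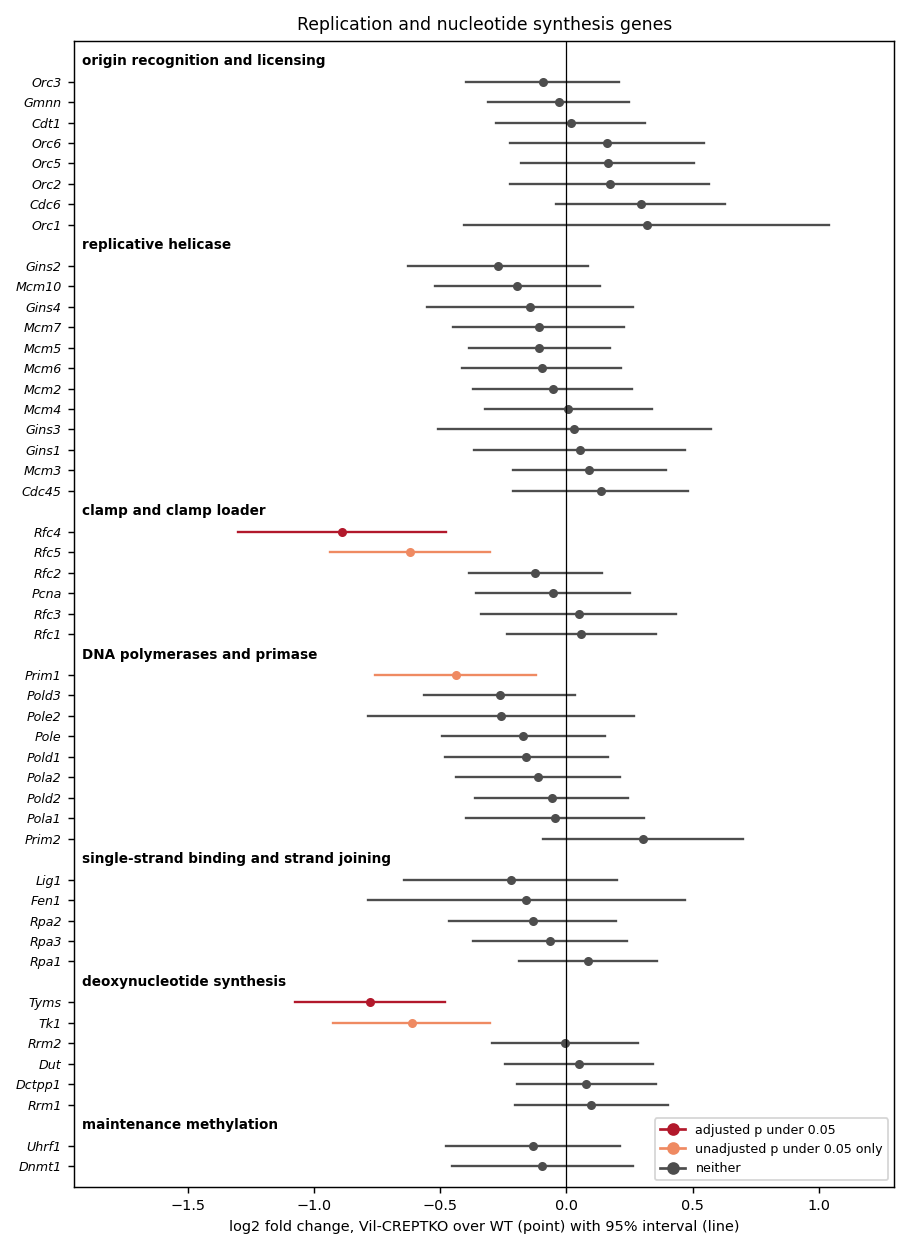
Log2 fold change of each of the 48 members in Vil-CREPTKO over WT crypts (points, 2 libraries a group) with its 95% interval from edgeR (lines), grouped by role. Rfc4 at -0.89 and Tyms at -0.78 passed the adjusted p, Rfc5, Tk1 and Prim1 passed the unadjusted p only, and the other 43 intervals contain 0.

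The 2 Vil-CREPTKO libraries did not place the members alike. Relative to the WT mean, the members' median log2 level was -0.174 in the first Vil-CREPTKO library but 0.053 in the second, with WT at -0.037 and 0.037. Their summed level was 2021 and 2128 CPM in WT and 1786 and 2110 CPM in Vil-CREPTKO. The lower library was the one with the highest villus enterocyte sum, the lowest crypt base sum and the highest mitochondrial share, and the part of these in the members' levels was not tested. Without that library the members' median log2 fold change was 0.047, with 15 members below 0 and 33 above. Without Vil-CREPTKO replicate 2 it was -0.174, with 39 below 0 and 9 above. In crypt RNA of this kind, fewer cells in S phase and less of a transcript in each cell cannot be told apart.

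**Figure D2:**
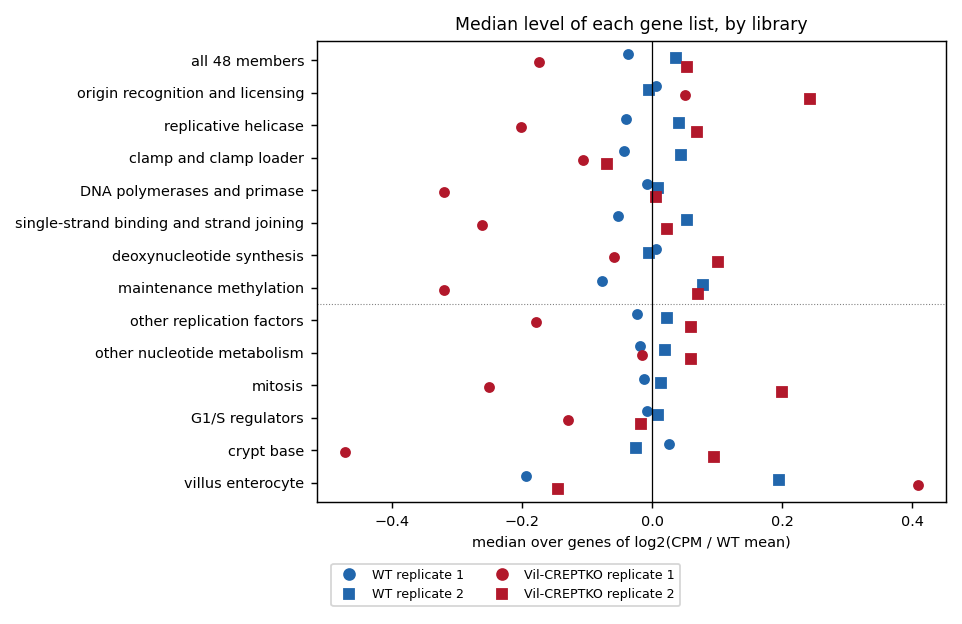
Median over genes of the log2 ratio of CPM to the WT mean, for each library (circles replicate 1, squares replicate 2, blue WT, red Vil-CREPTKO), for all 48 members, their 7 role groups, 4 related gene lists and 2 marker lists. Vil-CREPTKO replicate 1 lies lowest for the members (-0.174), mitosis and crypt base genes and highest for villus enterocyte genes, while Vil-CREPTKO replicate 2 lies at 0.053 for the members.

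The promoters of the 5 members with an unadjusted p under 0.05 are shown first, beside those of Rfc3, a subunit of the same clamp loader, and Mcm6, a helicase subunit, neither of which passed the test. Each stretch runs from 120 bases before to 30 bases after the start that RefSeq lists, on the gene's own strand, in GRCm38.p6. Capitals mark matches to the E2F-type motifs TTTCCCGC, TTTGGCGC, TTTCGCGC and TTTGCCGC on either strand, so GCGGGAAA is the reverse complement of the first, and matches that overlap are counted separately.
Tyms, chr5:30073596-30073745, minus strand: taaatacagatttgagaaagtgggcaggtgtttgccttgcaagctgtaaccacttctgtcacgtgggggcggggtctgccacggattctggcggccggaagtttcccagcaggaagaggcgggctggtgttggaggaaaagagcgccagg
Rfc4, chr16:23127701-23127850, minus strand: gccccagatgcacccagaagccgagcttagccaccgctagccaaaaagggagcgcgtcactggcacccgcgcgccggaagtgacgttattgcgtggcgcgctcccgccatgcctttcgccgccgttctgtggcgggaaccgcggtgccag
Rfc5, chr5:117388994-117389143, minus strand: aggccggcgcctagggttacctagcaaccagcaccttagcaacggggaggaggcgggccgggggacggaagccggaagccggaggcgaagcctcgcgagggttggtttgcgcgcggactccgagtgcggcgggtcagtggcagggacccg
Tk1, chr11:117825985-117826134, minus strand: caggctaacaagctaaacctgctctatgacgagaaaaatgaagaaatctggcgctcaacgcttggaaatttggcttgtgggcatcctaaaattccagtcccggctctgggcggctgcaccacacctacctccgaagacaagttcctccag
Prim1, chr10:128015095-128015244, plus strand: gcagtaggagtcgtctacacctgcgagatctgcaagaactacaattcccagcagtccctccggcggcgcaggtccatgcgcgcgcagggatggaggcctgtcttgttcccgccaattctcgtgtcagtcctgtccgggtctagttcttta
Rfc3, chr5:151651179-151651328, minus strand: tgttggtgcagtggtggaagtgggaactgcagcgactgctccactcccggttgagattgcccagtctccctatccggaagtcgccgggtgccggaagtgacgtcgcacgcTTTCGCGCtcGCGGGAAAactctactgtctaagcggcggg
Mcm6, chr1:128359676-128359825, minus strand: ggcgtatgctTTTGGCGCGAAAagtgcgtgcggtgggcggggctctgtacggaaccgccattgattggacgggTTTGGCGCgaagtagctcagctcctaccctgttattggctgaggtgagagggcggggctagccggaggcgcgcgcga

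RefSeq windows from 250 bases before to 50 bases after the start were at hand for 40 of the 48 members. An E2F-type motif stood in a window of 17 of them, or 42.5%, against 4.35% of the 11357 tested genes with a window and 2.60% of all 27025 genes with one. CCAAT, on either strand, stood in 62.5% of the members, 42.5% of the tested genes and 41.1% of all genes. By role, an E2F-type motif stood in 5 of 8 helicase genes, 4 of 7 licensing genes, 4 of 7 polymerase and primase genes, 1 of 5 clamp and clamp loader genes (Rfc3), 1 of 5 binding and joining genes, 0 of 6 deoxynucleotide synthesis genes and both methylation genes. The windows of Tyms, Rfc4, Tk1, Rfc5 and Prim1 held none of the 4 letter strings. Those of Pcna, Mcm2, Rfc1, Rrm1, Rrm2 and Dut held none either, and these genes did not pass the test. Rfc3 and Mcm6, shown above with matches, therefore do not stand for all members that did not pass. The 17 members with a match centred on a log2 fold change of -0.095 (median), and the 23 without one on -0.055. A match is an exact run of letters and not a measured binding site. Near matches were not counted, and stretches shown without a marked match also hold some, those of Rfc4, Prim1 and Tk1 among them. Starts outside the RefSeq table were not searched.

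Replication factor C is a ring of 5 subunits, a large one (RFC1) and 4 small ones (RFC2 to RFC5), that loads PCNA, and its genes did not all give the same difference. Rfc4 (chr16:23113943-23127737, minus strand, 11 exons) was measured at 17.9 and 19.2 CPM in WT and at 8.67 and 11.3 CPM in Vil-CREPTKO. The groups did not overlap, and the Vil-CREPTKO mean was 54.0% of the WT mean, for a log2 fold change of -0.89 (standard error 0.18, 95% interval -1.30 to -0.48, edgeR adjusted p = 0.0405). This is the lowest fold change of the 48 members, and its call ended under 4 of the 12 alternatives. The edgeR adjusted p was 0.0566 with upper-quartile scaling (log2 fold change -0.86), 0.0600 with the GC and length correction (-0.90), 0.0824 when WT replicate 2 was left out (-0.84) and 0.100 when Vil-CREPTKO replicate 1 was (-0.71), within a range of 0.00049 to 0.100 over all 12. Of its exon bases, 12.7% are also exon of Eif4a2 on the opposite strand, which had a log2 fold change of 0.15 (edgeR adjusted p = 0.758), and whether strand was used in counting is not given in the sources used here.

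Rfc5 (chr5:117378103-117389047, minus strand, 11 exons) was at 30.3 and 31.9 CPM in WT and at 19.0 and 21.5 CPM in Vil-CREPTKO. Its groups did not overlap either, but the log2 fold change of -0.62 (standard error 0.14, 95% interval -0.94 to -0.30) missed the threshold at an edgeR adjusted p of 0.0593. Without Vil-CREPTKO replicate 2 it passed, at 0.0459 (log2 fold change -0.71), within a range of 0.0086 to 0.185 over the alternatives. Of its exon bases, 10.7% overlap Wsb2 on the other strand, which had a log2 fold change of 0.18 (edgeR adjusted p = 0.605).

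The other 3 loader genes gave smaller differences. Rfc1, the large subunit, had the highest fold change of the clamp group, with 42.9 and 47.3 CPM in WT, 43.5 and 50.5 CPM in Vil-CREPTKO and a log2 fold change of 0.059 (standard error 0.13, edgeR adjusted p = 0.899). Rfc2 was at -0.12 and Rfc3 at 0.048, and the intervals of Rfc1, Rfc2 and Rfc3 all left out a 1.5-fold decrease. Pcna, the sliding clamp itself and the most abundant member, was at 191.7 and 192.5 CPM in WT and at 179.5 and 190.8 CPM in Vil-CREPTKO, for a log2 fold change of -0.053 (standard error 0.13, edgeR adjusted p = 0.913). The 2 Vil-CREPTKO values of Pcna both lay below WT, by less than 10%. Reads of Pcna could be shared with its processed pseudogene Pcna-ps2, which held 91 to 132 counts a library, while Pcna-ps1 held 0.

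Ratios of counts within a library do not depend on the scaling between libraries, and they show the same split of the loader. The ratio of Rfc4 to Rfc2 was 0.402 and 0.442 in WT against 0.214 and 0.283 in Vil-CREPTKO. Rfc4 and Rfc5 together over Rfc1, Rfc2 and Rfc3 together gave 0.463 and 0.453 in WT against 0.266 and 0.295 in Vil-CREPTKO, so that the Vil-CREPTKO mean was 61.4% of the WT mean. Neither ratio overlapped between the groups. Rfc3 over Rfc2, at 0.379 and 0.508 in WT against 0.482 and 0.515 in Vil-CREPTKO, did overlap, as did Rfc1 over Rfc2. No test was run on these ratios, and this split was read from the same libraries as the fold changes above. The pooled pair holds the loader genes with the lowest fold changes, so its ratio had to fall and adds no support.

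Of the genes for deoxynucleotides, the pair that makes thymidine monophosphate stood lower and the others gave values near WT. Tyms, thymidylate synthase, which methylates dUMP in the de novo route (chr5:30058202-30073617, minus strand, 7 exons), was at 41.1 and 38.5 CPM in WT and at 22.0 and 24.4 CPM in Vil-CREPTKO. Both Vil-CREPTKO libraries lay well below both WT libraries, with a mean of 58.3% of WT. Its log2 fold change was -0.78 (standard error 0.13, 95% interval -1.08 to -0.48, edgeR adjusted p = 0.0202). Tyms passed the threshold under all 12 alternatives tried, with log2 fold changes of -0.87 to -0.71. The processed pseudogene Tyms-ps held 0 to 1 counts.

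Tk1, the cytosolic thymidine kinase of the salvage route (chr11:117815526-117826092, minus strand, 7 exons), was at 65.8 and 60.6 CPM in WT and at 37.2 and 45.4 CPM in Vil-CREPTKO. The groups did not overlap, and the log2 fold change was -0.61 (standard error 0.14, 95% interval -0.92 to -0.30) at an edgeR adjusted p of 0.0560, just above the threshold. Without Vil-CREPTKO replicate 2 it passed, at 0.0134 (log2 fold change -0.76), within a range of 0.0022 to 0.147 over the alternatives. Afmid starts 168 bases away on the opposite strand and had a log2 fold change of -0.46 (edgeR adjusted p = 0.532).

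Rrm1 and Rrm2 encode the large and the S-phase small subunit of ribonucleotide reductase, which makes deoxynucleotides from ribonucleotides. Rrm1 had the highest fold change of the group, with 88.5 and 94.4 CPM in WT, 88.6 and 107.1 CPM in Vil-CREPTKO and a log2 fold change of 0.098 (standard error 0.13, 95% interval -0.21 to 0.40, edgeR adjusted p = 0.814). Rrm2 was at 46.6 and 53.7 CPM in WT and at 47.95 and 51.8 CPM in Vil-CREPTKO, so the Vil-CREPTKO values fell between the WT values. Dut, which removes dUTP and supplies dUMP to thymidylate synthase, had a log2 fold change of 0.050. Dctpp1, which breaks down dCTP analogues, was at 45.5 and 46.5 CPM in WT and at 45.8 and 51.3 CPM in Vil-CREPTKO, for a log2 fold change of 0.078 (standard error 0.12, edgeR adjusted p = 0.842), with overlapping groups. The ratio of Tyms to Dut counts was 1.16 and 1.13 in WT against 0.661 and 0.635 in Vil-CREPTKO, with no overlap, whereas Rrm1 over Rrm2, at 1.90 and 1.76 in WT against 1.85 and 2.07 in Vil-CREPTKO, overlapped. These ratios were not tested and rest on the same counts as the fold changes. Groups this small can lie apart on a slight difference, as Gmnn over Cdt1 did at 96.7% of WT. The intervals of Rrm1, Rrm2, Dut and Dctpp1 all left out a 1.5-fold change in either direction.

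**Figure D3:**
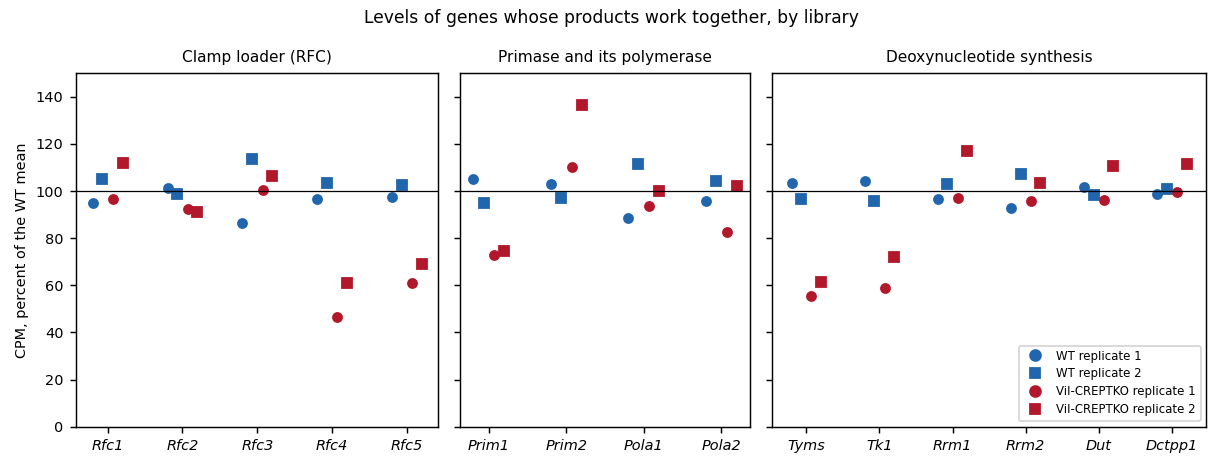
CPM of each library as a percent of the WT mean for the clamp loader genes, for primase with the 2 genes of polymerase alpha, and for the deoxynucleotide genes (circles replicate 1, squares replicate 2, blue WT, red Vil-CREPTKO; the line is 100%). Rfc4, Rfc5, Prim1, Tyms and Tk1 have both Vil-CREPTKO libraries below both WT libraries by a clear margin, with Vil-CREPTKO means of 54.0% of WT for Rfc4 and 58.3% for Tyms.

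Primase has a catalytic subunit, PRIM1, and a large regulatory one, PRIM2, which held the lowest and the highest fold change of the polymerase group. Prim1 (chr10:128015168-128030037, plus strand, 13 exons) was at 27.2 and 24.6 CPM in WT and at 18.9 and 19.3 CPM in Vil-CREPTKO, for a log2 fold change of -0.44 (standard error 0.14, 95% interval -0.76 to -0.12, edgeR adjusted p = 0.176). Prim2 was at 12.2 and 11.5 CPM in WT and at 13.0 and 16.1 CPM in Vil-CREPTKO, for a log2 fold change of 0.30 (standard error 0.17, 95% interval -0.092 to 0.70, edgeR adjusted p = 0.497). Neither passed the adjusted test, and both groups were apart in opposite directions. The ratio of Prim1 to Prim2 counts was 2.24 and 2.15 in WT against 1.45 and 1.20 in Vil-CREPTKO, and its Vil-CREPTKO mean was 60.4% of its WT mean. This ratio was not tested and was read from the same libraries as the fold changes.

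The remaining 7 polymerase genes had log2 fold changes from -0.26 to -0.044. Pola1 and Pola2, which with primase form polymerase alpha, were at -0.044 and -0.11. Of the polymerase delta genes, which copy mainly the lagging strand, Pold1 was at -0.16, Pold2 at -0.058 and Pold3 at -0.26, the last with both Vil-CREPTKO libraries (35.6 and 41.4 CPM) below WT (44.0 and 48.3 CPM). Pole, the catalytic subunit of the leading-strand polymerase, was at -0.17 and its partner Pole2 at -0.26. All 7 intervals contained 0.

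No gene of the helicase group passed the test. Mcm2 to Mcm7 encode the 6 subunits of the ring and had log2 fold changes from -0.11 (Mcm7) to 0.091 (Mcm3), with interval ends of -0.45 at the lowest and 0.39 at the highest, so a 1.5-fold change of any of the 6 lay outside its interval. The signs of Mcm2, Mcm3, Mcm4, Mcm6 and Mcm7 turned under at least 1 alternative. Gins2 had the lowest value of the 12 helicase genes, with 16.0 and 15.6 CPM in WT, 12.3 and 13.8 CPM in Vil-CREPTKO and a log2 fold change of -0.27 (standard error 0.16, edgeR adjusted p = 0.499). Its groups did not overlap, but 67.3% of its exon bases are also exon of Gse1 on the other strand. Cdc45, which joins GINS and MCM into the working helicase, had the highest value, with 15.8 CPM in both WT libraries, 16.2 and 18.5 CPM in Vil-CREPTKO and a log2 fold change of 0.14 (standard error 0.15, edgeR adjusted p = 0.762). Gins3, the least abundant helicase gene, was at 4.99 and 5.71 CPM in WT and at 4.69 and 6.23 CPM in Vil-CREPTKO, with the WT values between the Vil-CREPTKO values and a log2 fold change of 0.031 (standard error 0.24, edgeR adjusted p = 0.974). Gins1 and Gins4 were at 0.053 and -0.15, and Mcm10, which helps start the helicase, at -0.19.

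The licensing genes had the highest median of the 7 groups, 0.16, with 6 of 8 above 0 and 0 past the test. Orc1, the largest subunit of the origin recognition complex and the least abundant member, was at 4.07 and 2.40 CPM in WT and at 3.57 and 4.50 CPM in Vil-CREPTKO. The groups overlapped, and its log2 fold change of 0.32 (standard error 0.32, 95% interval -0.41 to 1.04, edgeR adjusted p = 0.728), the highest of all members, was -0.012 without WT replicate 2. Cdc6, which loads MCM together with the origin recognition complex, was apart in the upward direction, with 15.7 and 16.9 CPM in WT, 20.6 and 19.2 CPM in Vil-CREPTKO and a log2 fold change of 0.29 (standard error 0.15, 95% interval -0.041 to 0.63, edgeR adjusted p = 0.422). Orc3 had the lowest value of the group, with 24.9 and 25.1 CPM in WT, 23.1 and 23.7 CPM in Vil-CREPTKO and a log2 fold change of -0.094 (standard error 0.13, edgeR adjusted p = 0.822). Cdt1, the other loading factor, and Gmnn, which encodes its inhibitor geminin, were at 0.018 and -0.031, and both intervals left out a 1.5-fold change. Orc2, Orc5 and Orc6 were at 0.17, 0.16 and 0.16, Orc5 with both Vil-CREPTKO libraries above WT.

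In the binding and joining group the intervals of all 5 genes contained 0. Lig1, the ligase that seals Okazaki fragments, was lowest, with 60.8 and 77.2 CPM in WT, 48.7 and 69.6 CPM in Vil-CREPTKO and a log2 fold change of -0.22 (standard error 0.19, edgeR adjusted p = 0.668). Rpa1, the large subunit of the single-strand binding protein, was highest, with 50.2 and 54.0 CPM in WT, 52.7 and 57.8 CPM in Vil-CREPTKO and a log2 fold change of 0.085 (standard error 0.12, edgeR adjusted p = 0.822). Both genes overlapped between the groups. Rpa2, the middle subunit, was at -0.13. Rpa3, the small one, was at 29.0 and 29.9 CPM in WT and at 26.4 and 29.8 CPM in Vil-CREPTKO, for a log2 fold change of -0.065 (standard error 0.13, edgeR adjusted p = 0.890). Fen1, the nuclease that trims Okazaki fragments, was at 3.82 and 4.33 CPM in WT and 2.99 and 4.30 CPM in Vil-CREPTKO, for a log2 fold change of -0.16 (standard error 0.28, edgeR adjusted p = 0.863). Other genes' exons on the opposite strand cover 84.2% of its exon bases: 78.8% overlap the antisense gene Gm10143, which held 40 counts over the 4 libraries, and 5.37% overlap Tmem258, which held 24630. With the strand setting unknown, the level of Fen1 is uncertain.

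The 2 maintenance methylation genes, which copy methyl marks onto new DNA, overlapped between the groups. Uhrf1, which recognises half-methylated sites, was at 73.9 and 87.2 CPM in WT and at 64.3 and 82.6 CPM in Vil-CREPTKO, for a log2 fold change of -0.13 (standard error 0.15, edgeR adjusted p = 0.765). Dnmt1, the methyltransferase, was at 121.3 and 127.7 CPM in WT and at 99.7 and 133.4 CPM in Vil-CREPTKO, for a log2 fold change of -0.095 (standard error 0.16, edgeR adjusted p = 0.856). In both genes Vil-CREPTKO replicate 1 was the lowest library.

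Levels of different members were compared per kilobase of transcript, taking a single annotated transcript for each gene. In WT, Pcna stood highest at 126.5 CPM per kb, followed by Dctpp1 at 68.0 and Rpa3 at 43.9, and Orc1 (1.07), Fen1 (1.72) and Gins3 (2.12) stood lowest, a range of 118-fold between the ends, with the Fen1 level uncertain through its overlaps. Rpa3 and Tk1 were alike in WT at this scale. The 6 MCM ring genes, whose products sit in equal numbers in the ring, ran from 13.8 (Mcm4) to 37.7 CPM per kb (Mcm6), a 2.73-fold range. The 5 loader genes ran from 8.80 (Rfc2) to 15.1 (Rfc4) CPM per kb in WT. That order rests on the transcript lengths taken, 4995 bases for Rfc2 and 1228 for Rfc4. In WT mean CPM, Rfc4 was the lowest of the 5 at 18.5, with Rfc2 at 44.0. The level of Rfc4 is also open to its overlap with Eif4a2. GINS genes spanned 2.12 to 13.0 and origin recognition genes 1.07 to 12.2 CPM per kb.

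**Figure D4:**
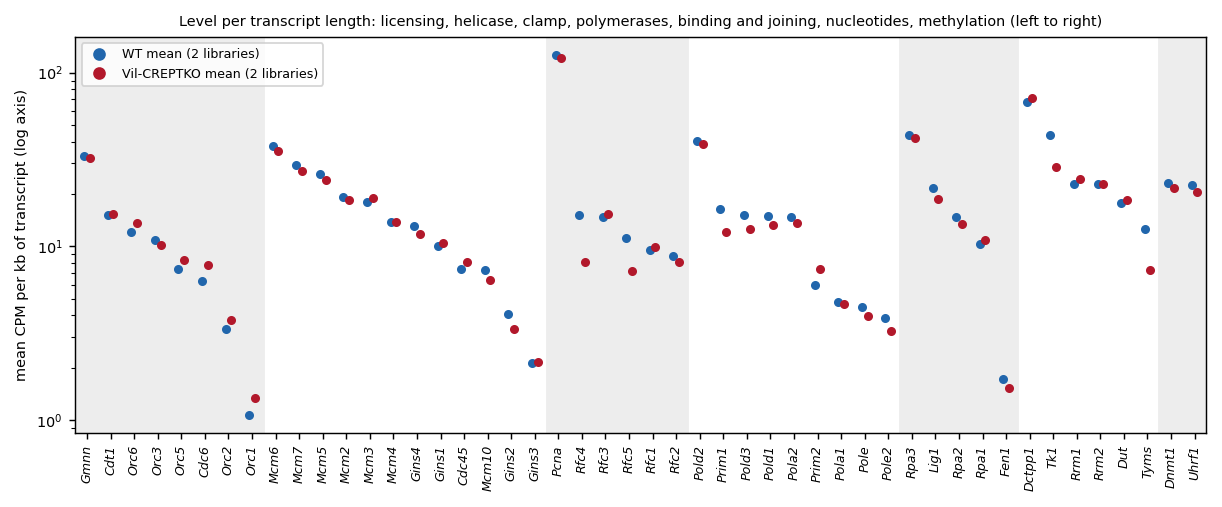
Mean CPM per kb of transcript (log axis) of the 48 members in WT (blue) and Vil-CREPTKO (red), 2 libraries each, with grey and white bands for the 7 role groups. WT levels run from 1.07 (Orc1) to 126.5 (Pcna), and the gap between the colours is widest for Rfc4 and Tyms.

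Genes listed for related roles were read in the same fit. These lists were made with earlier results of these data known, so their shares beside all genes are description only. Of 36 other replication factors, 3 fell (8.33%, against 2.29% of all genes) and 0 rose (against 0.423%), with a median log2 fold change of -0.021. Chtf18, a subunit of an alternative clamp loader that contains the small RFC subunits, was at 17.0 and 14.9 CPM in WT and at 7.78 and 7.92 CPM in Vil-CREPTKO, for a log2 fold change of -1.02 (standard error 0.17, edgeR adjusted p = 0.0194). Donson, which takes part in assembling the helicase, was at 15.2 and 17.1 CPM in WT and at 7.68 and 8.39 CPM in Vil-CREPTKO, for a log2 fold change of -1.01 (standard error 0.17, edgeR adjusted p = 0.0206). Rnaseh2c, a subunit of the enzyme that removes ribonucleotides from DNA, was at 65.6 and 65.7 CPM in WT and at 36.6 and 39.0 CPM in Vil-CREPTKO, for a log2 fold change of -0.80 (standard error 0.12, edgeR adjusted p = 0.0105). The groups were far apart for all 3.

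Of 39 other genes of nucleotide metabolism, 1 rose (2.56%, against 0.423% of all genes) and 0 fell, with a median of 0.036. Guk1, guanylate kinase, was at 68.4 and 68.9 CPM in WT and at 113.2 and 99.7 CPM in Vil-CREPTKO, for a log2 fold change of 0.63 (standard error 0.12, edgeR adjusted p = 0.0319), and the count for this list was 0 without WT replicate 1, WT replicate 2 or Vil-CREPTKO replicate 1. Of the 22 tested G1/S regulators, 1 fell (4.55%, against 2.29% of all genes) and 0 rose, with a median of -0.083. Cdk4, the cyclin D kinase of the G1 phase, was at 147.0 and 136.4 CPM in WT and at 77.9 and 94.1 CPM in Vil-CREPTKO, for a log2 fold change of -0.72 (standard error 0.14, edgeR adjusted p = 0.0320), and the count was 0 without WT replicate 1 or Vil-CREPTKO replicate 1. Of 30 mitosis genes, 0 passed edgeR's adjusted p and 0 had an unadjusted p under 0.05, with a median of -0.026 and with Vil-CREPTKO replicate 1 the lowest library and replicate 2 the highest, and 1 was called without Vil-CREPTKO replicate 2.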

How the data were processed

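Total RNA of small intestinal crypts was sequenced for 2 WT and 2 Vil-CREPTKO samples. The deposited values are whole-number counts per gene, made by the authors with Bowtie2 and RSEM on GRCm38.p6 after base calling with CASAVA 1.8, per the submitters' processing notes and the study's methods. The annotation, the strand setting and the instrument's read layout are not given in the sources used here. The authors' rounding of estimates, where it occurred, removes fractions of a read, and RSEM shares a read between genes it matches equally well. Of 53845 rows, 99.1% matched GENCODE M21 by Ensembl gene identifier. The 380 unnamed loci (0.178 to 0.247% of counts) were not removed, so those that passed the filter entered library sizes and tests.

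Counts were tested with edgeR 4.0.16 (R 4.3.3): filterByExpr, TMM scaling, glmQLFit and glmQLFTest on group alone, two-sided, with Benjamini-Hochberg adjustment over the 17504 genes kept. The study's methods used DESeq2, here an alternative (DESeq2 1.42.0). Called means adjusted p under 0.05. Intervals are 95% and rest on 2 libraries a group. The labels give a replicate number but no litter or batch, the study's methods call the replicates biological, and p-values measure only the spread between these libraries. Duplicate libraries were looked for, and the counts of each pair differed beyond sampling noise (chi-square per gene 49.8 for WT and 70.1 for Vil-CREPTKO). The common biological coefficient of variation was 0.188.

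The 48 members and the other gene lists were chosen with earlier results of these data known. Every member is accounted for. Full values are given for members with an adjusted or unadjusted p under 0.05, for the lowest and highest fold change of each role, for the 3 most and 3 least abundant per length, and for related genes with adjusted p under 0.05. Cdc6, Pold3 and Rrm2 were given values in every library after their values were seen. Coordinates and overlaps come from GENCODE M21 (GRCm38), and promoter sequences from RefSeq (GRCm38.p6). Alternatives were DESeq2, 3 other scalings, 2 other filters, a replicate block, a correction for GC content and length, and leaving out each library.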

Additional observations from a re-analysis of the deposited data

How the results depend on the processing

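With 2 libraries a group and a member count as low as 118, changes well under 1.5-fold could not be told from 0. Some larger ones were not called either: Rfc5 at -0.62 and Tk1 at -0.61 on the log2 scale missed the adjusted threshold. Across the 12 alternatives, 21 members never changed sign and 27 did at least once, and the cause was not tested. Of the members, Tyms was called in all 12, Rfc4 in 8, Tk1 in 5 and Rfc5 in 4. Of the 48 members, 4 were called lower with DESeq2 (625 over all genes), with no filter (908) and with at least 10 counts in every library (434). The number was 3 with library-size scaling (597), and 1 with upper-quartile scaling (303) or the GC and length correction (284), against 2 (400) in the main fit. Rfc4 was at -0.86 with upper-quartile scaling and at -0.90 with the correction. The numbers of genes tested differ between filters, so no shares are set beside these counts. The number of members called also moved when a library was left out. Libraries with the same replicate number did not deviate together over genes (correlation of deviations 0.028), but 2 pairs cannot settle whether they shared a litter or batch. With the replicate block 2 members were called, 452 genes were lower and 106 higher, and Mcm4 was at -0.0053. Over all genes, the 400 lower and 74 higher calls became 625 and 183 with DESeq2 and 908 and 325 with no filter, and 332 to 462 and 80 to 234 when a library was left out; those past 1 on the log2 scale became 379 lower with library-size scaling, 450 lower and 163 higher with no filter, 87 higher with DESeq2, and 225 to 308 lower and 62 to 135 higher without a library. Library-size scaling moved the median of all genes to -0.098 and that of the members to -0.148, of clamp genes to -0.18, of deoxynucleotide genes to -0.066, of other nucleotide metabolism to -0.045 with 0 calls, and of G1/S regulators to -0.18. It put Cdt1 at -0.070, Mcm4 at -0.077, Gins1 at -0.030, Gins3 at -0.050, Rfc1 at -0.026, Rfc3 at -0.036, Rpa1 at -0.0032, Dut at -0.039 and Dctpp1 at -0.011. The GC and length correction put Mcm2 at 0.075, Pold1 at 0.020, Pold2 at 0.085, Dnmt1 at 0.0035 and other nucleotide metabolism at a median of 0.086, with 0 G1/S calls. Upper-quartile scaling put Gmnn at 0.0028, and Rrm2 was at 0.0090 with DESeq2, 0.011 with RLE scaling and 0.028 with upper-quartile scaling. Leaving out 1 library at a time gave medians of -0.17 to 0.047 for the members, 0.050 to 0.24 for licensing genes, -0.17 to 0.050 for other replication factors, -0.014 to 0.087 for other nucleotide metabolism and -0.12 to -0.020 for G1/S regulators, and calls of 0 to 1 for other nucleotide metabolism, 0 to 1 for mitosis and 0 to 1 for G1/S regulators. It gave log2 fold changes of -0.012 to 0.75 for Orc1, -0.055 to 0.088 for Cdt1, -0.085 to 0.025 for Gmnn, -0.18 to 0.084 for Mcm2, -0.040 to 0.21 for Mcm3, -0.19 to 0.18 for Mcm4, -0.25 to 0.042 for Mcm6, -0.32 to 0.076 for Mcm7, -0.11 to 0.20 for Gins1, -0.18 to 0.22 for Gins3, -0.37 to 0.050 for Gins4, -0.047 to 0.16 for Rfc1, -0.14 to 0.26 for Rfc3, -0.20 to 0.13 for Pola1, -0.27 to 0.027 for Pola2, -0.34 to 0.0024 for Pold1, -0.22 to 0.085 for Pold2, -0.15 to 0.017 for Rpa3, -0.44 to 0.074 for Fen1, -0.50 to 0.0097 for Lig1, -0.040 to 0.23 for Rrm1, -0.11 to 0.10 for Rrm2, -0.052 to 0.15 for Dut, -0.00077 to 0.15 for Dctpp1, -0.32 to 0.033 for Uhrf1 and -0.31 to 0.097 for Dnmt1.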

Other observations

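Many members share their start region with another gene, and those neighbours give a further reading of the same DNA. Of the 48 members, 20 have a gene that starts within 1000 bases on the opposite strand, and for 12 of them such a partner is protein-coding and was tested. None of these partners passed edgeR's adjusted p of 0.05. Prkdc, which encodes the catalytic subunit of DNA-PK and starts 466 bases from Mcm4, was at 31.0 and 30.6 CPM in WT and at 33.2 and 40.9 CPM in Vil-CREPTKO, for a log2 fold change of 0.27 (edgeR adjusted p = 0.447) beside 0.0069 for Mcm4. Pxmp2, a peroxisomal membrane protein gene 120 bases from Pole, was at 5.47 and 6.58 CPM in WT and at 4.72 and 4.36 CPM in Vil-CREPTKO, for a log2 fold change of -0.41 (edgeR adjusted p = 0.474) beside -0.17 for Pole. Ufd1 and Cdc45, whose starts lie 208 bases apart, were both above WT in both Vil-CREPTKO libraries, at log2 fold changes of 0.22 (edgeR adjusted p = 0.506) and 0.14. These 3 pairs were chosen after their values were seen.

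The exons of 16 members are overlapped by exons of another gene, and for 3 of them, Fen1, Gins2 and Orc2, by over 20% of their bases. Orc2 shares 29.8% of its exon bases with Nif3l1 on the opposite strand, and the pair had log2 fold changes of 0.17 and 0.19. Cops6, which encodes a subunit of the COP9 signalosome and overlaps 1.45% of the exon bases of Mcm7 on the opposite strand, fell by 0.69 on the log2 scale (edgeR adjusted p = 0.0197), while Mcm7 was at -0.11. The members lie on 16 chromosomes, with 8 on chromosome 5 and 6 on chromosome 8.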
